A study of Homo sapiens with 10 samples.

Results

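RNA from HEK293T cells that overexpressed the kinase BRSK1 was compared with RNA from control cells, using every gene in the count table: 3 BRSK1 libraries against 2 hcRED and 2 Mock libraries, which is 7 of the 10 libraries in the series. HEK293T is a transformed human embryonic kidney line that carries the SV40 large T antigen. Per the labels, BRSK1 (replicates 1, 2 and 3) and hcRED, a red fluorescent protein (replicates 1 and 3), were each overexpressed for 24 h, and the Mock libraries (replicates 2 and 3) carry no other agent in the labels. The other 3 libraries overexpressed BRSK2 and served to estimate the spread and as a comparison for BRSK1. No source used here gives the vector, its promoter or the way it was delivered. The labels do not say whether replicates were grown as separate cultures, so the p-values below speak only of how far these libraries spread, and that spread may be technical.

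BRSK1 and BRSK2 are serine/threonine kinases of the AMPK-related family, which the kinase LKB1 activates through a threonine in their activation loop. They are best known from neurons, where they act in polarity, in synaptic vesicle release and on microtubule-associated proteins such as tau. The series title places both kinases as negative regulators of NRF2. That transcription factor switches on antioxidant and detoxification genes, and KEAP1 otherwise sends it to the proteasome. The question here was which transcripts differed once BRSK1 was overexpressed.

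The libraries held between 19410607 and 24304302 counts, and 16936 of the 58676 genes passed a filter on low counts and were tested. Levels are given in CPM (counts scaled to library size with TMM factors) and differences as log2 fold changes ± standard error. BRSK1 (chr19:55282072-55312533 on hg38, plus strand) stood at 46186, 65518 and 70223 CPM in BRSK1 replicates 1, 2 and 3, at 17.8 and 27.3 CPM with hcRED, and at 14.1 and 10.2 CPM in Mock. The 3 libraries labelled BRSK1 thus lay far above the others, with a log2 fold change of 11.84 ± 0.30 (adjusted p = 2.43e-06), and BRSK1 took 4.72% to 6.96% of all counts in its libraries. BRSK2 did not move with it, at 75.2, 76.3 and 87.5 CPM against 69.9 to 97.7 CPM in the controls (log2 fold change -0.08 ± 0.11, adjusted p = 0.734).

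BRSK1 replicate 1 stood apart in transcripts of squamous epithelium, the keratin-rich lining of skin and mucosa. KRT14, a basal keratin, stood at 32.7 CPM in that library and at 1.90 and 1.78 CPM in BRSK1 replicates 2 and 3, against 3.18 to 9.35 CPM in the controls. Of 38 squamous markers, 26 were highest in BRSK1 replicate 1 and 21 exceeded 2 times the level of each of the other 6 BRSK1 and control libraries. Their summed level, on library totals, was 881 CPM there and 672 to 674 CPM in the other BRSK1 libraries, against 722 to 754 CPM in the controls. Most of that sum came from DSP, PERP, DSC3, JUP, DMKN and KRT10, which every library expressed, and without these 6 genes the sums were 182 CPM in BRSK1 replicate 1, 15.9 and 15.8 CPM in the other BRSK1 libraries, and 18.6 to 44.3 CPM in the controls. TP63, which defines squamous cells, was at most 0.05 CPM in these 7 libraries, and SPRR2A and S100A7 were at 0. Of the 24 squamous markers tested PERP alone passed, a call lost without BRSK1 replicate 1, and no tested marker of simple epithelium, fibroblasts, leukocytes or erythroid and liver cells did. Markers of the line itself were present in these 7 libraries, with NEFM at 133 to 183 CPM and IGF2BP1 at 401 to 566 CPM on library totals. Counts below are therefore also given without BRSK1 replicate 1. Where a list is given with no such count, all of its calls remained without that library. The part these transcripts play in any result was not tested.

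**Figure D1:**
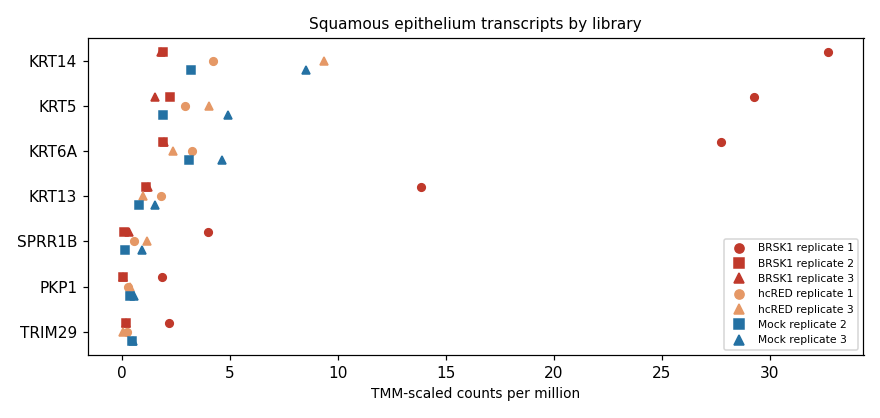
Each row is 1 squamous epithelium transcript and each point 1 library, with TMM-scaled CPM on the horizontal axis, colour for the group and marker shape for the replicate. BRSK1 replicate 1 lies at 32.7 CPM for KRT14, where the other 6 libraries reach at most 9.35 CPM.

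In BRSK1 libraries, 1089 genes differed from the controls, 638 of them higher and 451 lower, by edgeR's quasi-likelihood test with Benjamini-Hochberg adjustment at an adjusted p under 0.05. That is 6.43% of the tested genes, with 3.77% higher and 2.66% lower. Most differences were small: the median size among these genes was 0.35 on the log2 scale, 890 of them (81.7%) changed by less than 1.5-fold, and only 61 exceeded 2-fold higher and 8 exceeded 2-fold lower. The 3 BRSK1 libraries lay fully above or fully below the 4 control libraries for 971 of the 1089 genes, beside 18.4% of all tested genes. Scaled on library totals alone, the split turned to 463 higher and 733 lower, with the median of all tested genes moving from 0.00 to -0.04.

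How many genes passed rested on single libraries. Without BRSK1 replicate 1, 877 genes (5.21%) passed, 745 of the 1089 passed in both fits, and all 1086 that could be tested kept their direction. Leaving out BRSK1 replicate 2 gave 415 genes and leaving out BRSK1 replicate 3 gave 204. Leaving out hcRED replicate 1 gave 314, hcRED replicate 3 gave 654 and Mock replicate 3 gave 585. Leaving out BRSK2 replicate 1, which is on neither side of this comparison but enters the shared spread, the scaling and the filter, gave 1751. It also rested on the control: 1133 genes (6.69%) differed from Mock alone, 133 (0.785%) from hcRED alone, and 91 were called against both, with 1 direction in each case. The 2 controls differed from each other in 5 genes. The authors' deposited table for BRSK1 lists 879 genes, 523 higher and 356 lower, of which 879 had the same direction here and 805 passed.

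**Figure D2:**
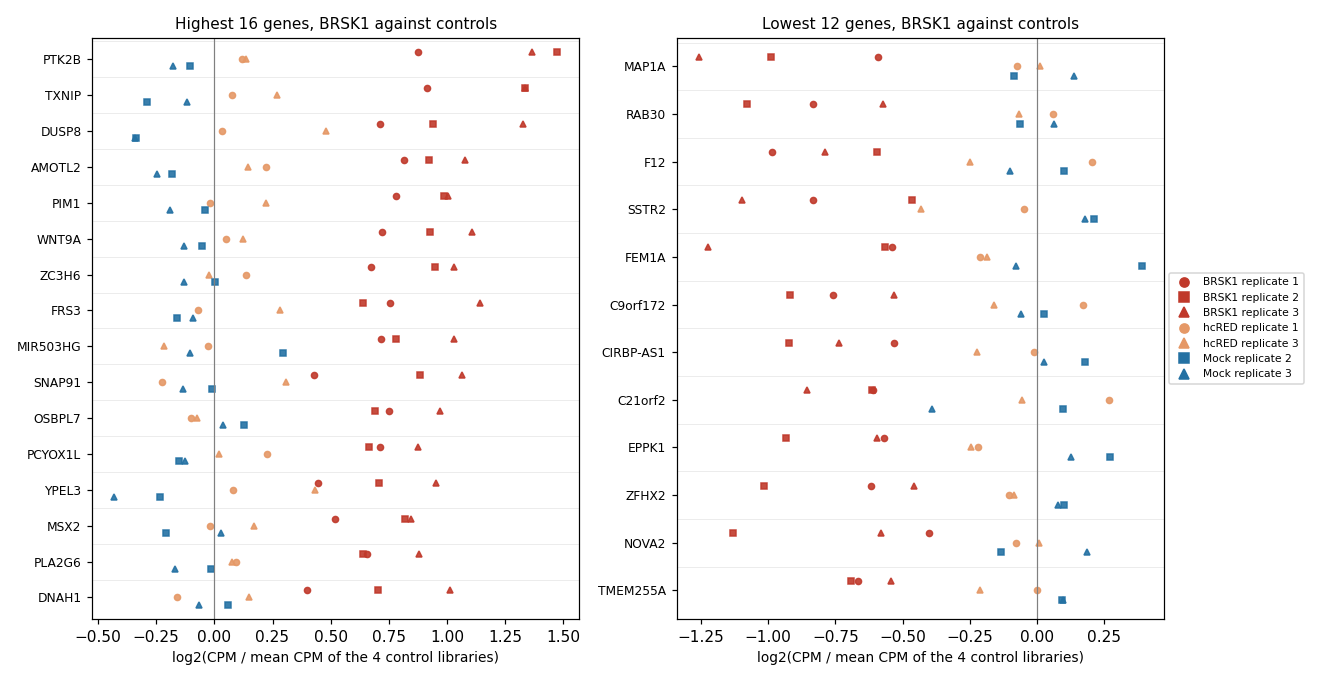
Each row is 1 gene, and each point is the log2 ratio of 1 library's CPM to the mean CPM of the 4 control libraries, for the 16 highest genes on the left and the 12 lowest on the right. The BRSK1 points lie wholly to the right of the control points for PTK2B, TXNIP and PIM1 and wholly to the left for F12 and RAB30. The rule that chose the genes required this separation of every gene shown.

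Genes were ranked if called both with and without BRSK1 replicate 1, at a mean of at least 5 CPM. The rule also required BRSK1 libraries fully above or fully below the controls, so that separation is no separate support for any ranked gene. Among these genes, BRSK1 aside, the largest rises were in PTK2B, TXNIP and DUSP8. PTK2B, a calcium-responsive kinase of the focal adhesion kinase family (chr8:27311482-27459391), stood at 5.97, 9.03 and 8.38 CPM with BRSK1, 3.53 and 3.57 CPM with hcRED, and 3.03 and 2.87 CPM in Mock. Its lowest BRSK1 library was above every control, and the log2 fold change was 1.27 ± 0.20 (adjusted p = 0.00108). None of the other 26 focal adhesion kinases and adaptors tested passed. DUSP8, a phosphatase that acts on JNK and p38 kinases, rose from 18.8 and 25.6 CPM with hcRED and 14.5 CPM in both Mock libraries to 30.1, 35.2 and 46.0 CPM (log2 fold change 1.05 ± 0.16, adjusted p = 0.0063). Against hcRED alone DUSP8 had a log2 fold change of 0.74 and an adjusted p of 0.119.

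PIM1, a serine/threonine kinase that promotes survival and cell cycle entry, stood at 30.9, 35.6 and 36.1 CPM with BRSK1, 17.7 and 20.96 CPM with hcRED, and 17.5 and 15.7 CPM in Mock. All 4 controls lay under every BRSK1 library, and the log2 fold change was 0.93 ± 0.09 (adjusted p = 2.43e-06). Its relative PIM3 rose by less, from 96.5 to 112 CPM in the controls to 133 to 153 CPM (log2 fold change 0.43 ± 0.07, adjusted p = 0.000798). PIM2, the third member of the family, had a log2 fold change of -0.15 and did not pass (adjusted p = 0.31). PIM1 and PIM3 passed under each of the 25 alternatives run.

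Other genes near the top had varied roles. ZC3H6, which encodes a zinc finger protein, rose by 0.89 ± 0.12 on the log2 scale, FRS3, an adaptor of fibroblast growth factor receptors, by 0.87 ± 0.19, and the long noncoding RNA MIR503HG by 0.86 ± 0.20. SNAP91, which assembles clathrin on synaptic vesicles, rose by 0.82 ± 0.21, OSBPL7, of the oxysterol-binding protein family, by 0.81 ± 0.13, and PCYOX1L by 0.76 ± 0.10. YPEL3 rose by 0.75 ± 0.17, MSX2, a homeobox transcription factor, by 0.74 ± 0.10, PLA2G6, a calcium-independent phospholipase, by 0.73 ± 0.12, and DNAH1, an axonemal dynein heavy chain, by 0.73 ± 0.14. All 16 of the highest genes were still called without BRSK1 replicate 1, which the rule that chose them required. Of the 16, 14 were called without BRSK1 replicate 2, 11 without BRSK1 replicate 3, 12 without hcRED replicate 1 and 11 against hcRED alone.

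The lowest genes, ranked by the same rule, fell by less than the highest rose. MAP1A, which encodes a microtubule-associated protein of neurons, stood at 33.8, 25.7 and 21.3 CPM with BRSK1, 48.4 and 51.4 CPM with hcRED, and 48.0 and 56.1 CPM in Mock (log2 fold change -0.92 ± 0.20, adjusted p = 0.038). The groups did not overlap, but the call was lost without any 1 of BRSK1 replicates 2 and 3, the 4 control libraries and BRSK2 replicate 2, and against either control alone, with adjusted p up to 0.142 over the alternatives. F12, the coagulation factor XII, stood at 4.03, 5.27 and 4.61 CPM against 9.19 and 6.71 CPM with hcRED and 8.53 and 7.43 CPM in Mock (log2 fold change -0.78 ± 0.16, adjusted p = 0.00513). F12 and C9orf172 (-0.73 ± 0.15) were the only 2 of the 12 lowest genes that passed under all 25 alternatives.

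RAB30, a small GTPase of the Golgi, fell by 0.81 on the log2 scale, the somatostatin receptor SSTR2 by 0.76, and FEM1A, a substrate receptor of a ubiquitin ligase, by 0.73. The plakin EPPK1 fell by 0.67, the neuronal splicing factor NOVA2 by 0.67, the homeobox factor ZFHX2 by 0.67, C21orf2 by 0.69 and TMEM255A by 0.63. CIRBP-AS1 fell by 0.72 on the log2 scale, and since the strand setting of the counting is not given, its reads cannot be told apart from those of CIRBP. Of the 12, 6 were called without BRSK1 replicate 3, 7 without BRSK1 replicate 2, 5 without hcRED replicate 1 and 3 against hcRED alone.

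TXNIP, ARRDC3 and ARRDC4 rose, while other alpha-arrestins fell or did not pass. TXNIP binds thioredoxin and restrains glucose uptake, its relatives ARRDC3 and ARRDC4 are adaptors that direct membrane proteins to endosomes, and TXNIP and ARRDC4 are the best known targets of the glucose-sensing factor MondoA (MLXIP) with its partner MLX. The 250 bases before the RefSeq starts of TXNIP (the one of 2 listed starts that held a match, chr1:145996580-145996829, minus strand) and ARRDC4 (chr15:97960453-97960702, plus strand) are shown 5′ to 3′ on GRCh38.p14, with motif matches in capitals.
TXNIP: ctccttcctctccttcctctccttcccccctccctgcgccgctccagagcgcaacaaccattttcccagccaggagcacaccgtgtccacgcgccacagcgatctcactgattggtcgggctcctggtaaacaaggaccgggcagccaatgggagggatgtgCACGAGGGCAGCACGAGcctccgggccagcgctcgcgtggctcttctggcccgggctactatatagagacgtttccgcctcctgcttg
ARRDC4: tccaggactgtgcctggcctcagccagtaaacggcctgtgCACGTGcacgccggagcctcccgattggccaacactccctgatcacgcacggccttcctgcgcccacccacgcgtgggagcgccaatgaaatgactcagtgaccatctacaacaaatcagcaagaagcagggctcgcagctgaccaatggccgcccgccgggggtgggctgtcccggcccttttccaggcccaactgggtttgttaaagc
The capitals in TXNIP match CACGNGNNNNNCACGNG, a pair of half-sites in the arrangement known as a carbohydrate response element, which starts 88 bases before the start and which 16 of 35116 promoter windows of that length hold on either strand (0.0456%). The capitals in ARRDC4 match the E-box CACGTG, its own reverse complement, 210 bases before the start, which 2228 windows hold (6.34%). Neither motif matched in the 2 listed windows of ARRDC3 or at the other start of TXNIP. The window of MLX held the E-box 50 bases before its start and not the longer motif. The longer motif was chosen after the TXNIP promoter had been read, so its share of windows is no test of TXNIP. A match describes letters, not binding, and whether these motifs played a part in the rises was not tested.

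TXNIP stood at 33.5, 44.9 and 44.8 CPM with BRSK1, 18.8 and 21.4 CPM with hcRED, and 14.5 and 16.4 CPM in Mock (log2 fold change 1.22 ± 0.13, adjusted p = 0.000224). ARRDC4 stood at 38.6, 44.0 and 40.7 CPM against 25.0 and 23.3 CPM with hcRED and 31.5 and 32.1 CPM in Mock (log2 fold change 0.57 ± 0.08, adjusted p = 0.000224). For both, every BRSK1 library was above every control, but the order of the controls differed: hcRED was above Mock for TXNIP and below it for ARRDC4. ARRDC3 rose from 8.53 to 13.5 CPM in the controls to 16.4 to 19.2 CPM (log2 fold change 0.71 ± 0.11, adjusted p = 0.000473), and MLX rose by 0.35 ± 0.07. MLXIP itself fell by 0.27 on the log2 scale and ARRDC1 by 0.29, while ARRDC2, HBP1, PFKFB3 and MLXIPL did not pass. In all, 4 of 10 tested members rose and 2 fell, with a median of 0.09 beside 0.00 for all genes. Without BRSK1 replicate 1, 5 of the 6 remained called, without BRSK1 replicate 2 or 3 or hcRED replicate 1 it was 4, and against hcRED alone only TXNIP and ARRDC4.

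**Figure D3:**
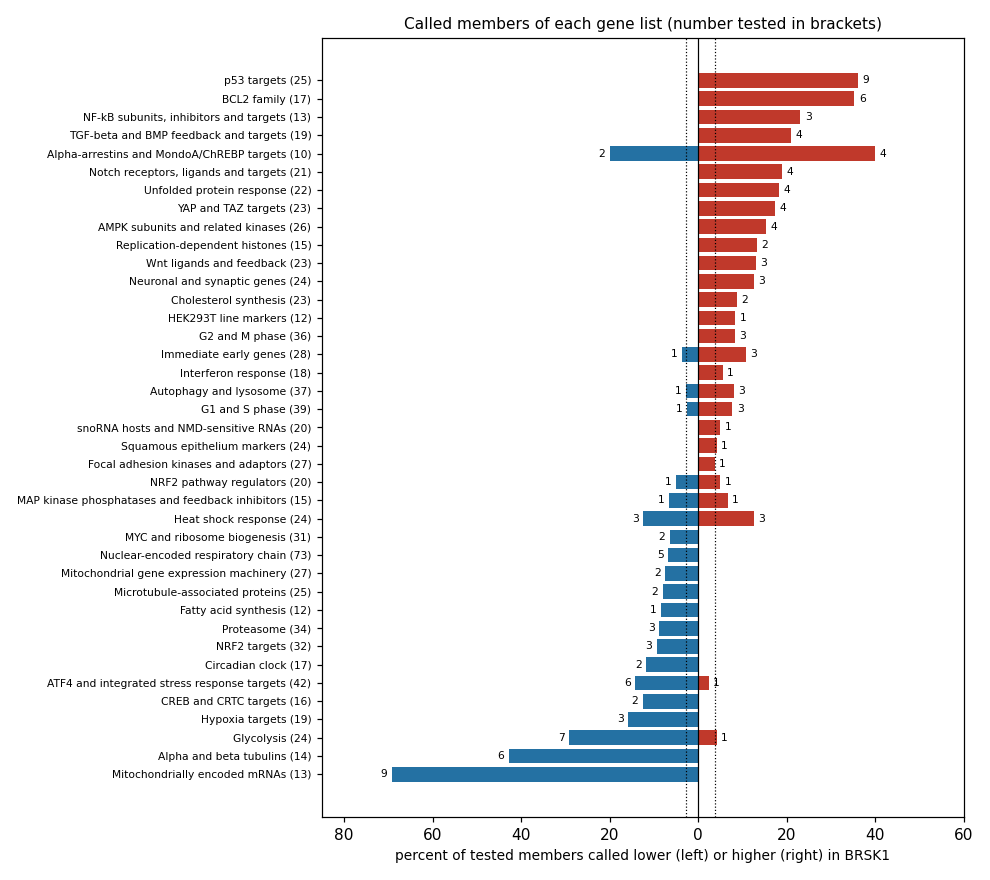
Bars give the percent of tested members of each gene list that passed lower (left) or higher (right) in BRSK1 against the controls, with the number of genes at the bar's end and the number tested in brackets. The dotted lines mark all tested genes, 2.66% lower and 3.77% higher, and p53 targets with 9 of 25 higher and mitochondrially encoded mRNAs with 9 of 13 lower lie at the ends.

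Targets of several signalling pathways rose in small numbers. Of 23 targets of YAP and TAZ, the coactivators that the Hippo pathway restrains, 4 rose and none fell, with a median of 0.20. AMOTL2, an angiomotin that binds YAP and is itself a target, stood at 28.5, 30.7 and 34.2 CPM with BRSK1, 18.9 and 17.9 CPM with hcRED, and 14.3 and 13.7 CPM in Mock (log2 fold change 0.96 ± 0.12, adjusted p = 0.000344). CYR61, a matricellular protein, rose from 7.92 to 11.4 CPM to 14.6 to 16.96 CPM (log2 fold change 0.62 ± 0.13, adjusted p = 0.00717). CTGF and ANKRD1 also passed at low levels, CTGF from 0.891 to 1.08 CPM to 1.42 to 2.46 CPM, and ANKRD1 from 0 to 0.343 CPM to 0.663 to 1.66 CPM. Without BRSK1 replicate 1 CTGF lost its call, without BRSK1 replicate 3 the count was 2, and against hcRED alone AMOTL2 was the 1 that passed.

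Among 23 Wnt ligands and feedback genes, 3 rose and none fell. WNT9A, a secreted ligand, stood at 7.86, 9.08 and 10.3 CPM with BRSK1, 4.95 and 5.19 CPM with hcRED, and 4.59 and 4.36 CPM in Mock (log2 fold change 0.93 ± 0.14, adjusted p = 0.00038). Both control groups sat close together, all under the lowest BRSK1 library. WNT3, another ligand, rose by 0.62 ± 0.15 and NOTUM, which removes the lipid that Wnt ligands need, by 1.07 ± 0.29 from 0.594 to 1.36 CPM to 1.66 to 2.17 CPM. The feedback genes of the list otherwise did not pass, and its median was -0.01. Only WNT9A passed without BRSK1 replicate 3, without hcRED replicate 1, or against hcRED alone.

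NF-kB genes gave 3 rises among 13. ZC3H12A, the ribonuclease Regnase-1 that degrades inflammatory mRNAs, stood at 5.16, 5.62 and 7.80 CPM with BRSK1, 3.20 and 4.21 CPM with hcRED, and 2.42 and 2.57 CPM in Mock (log2 fold change 1.03 ± 0.17, adjusted p = 0.00138). RELB, a subunit of the noncanonical pathway, rose by 0.78 ± 0.17 and its partner NFKB2 by 0.38 ± 0.10. RELB overlapped: hcRED replicate 3 at 7.98 CPM lay above BRSK1 replicate 1 at 7.01 CPM. All 3 passed without BRSK1 replicate 1, 1 without BRSK1 replicate 2, BRSK1 replicate 3 or hcRED replicate 1, and none against hcRED alone.

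Of 19 feedback genes and targets of TGF-beta and BMP, 4 rose and none fell, with a median of 0.15. SMAD7, the inhibitory SMAD, stood at 43.7, 45.1 and 49.1 CPM with BRSK1, 29.3 and 32.7 CPM with hcRED, and 26.9 and 24.8 CPM in Mock (log2 fold change 0.70 ± 0.08, adjusted p = 9.13e-06). KLF10, an early TGF-beta target, rose from 20.8 to 24.5 CPM to 33.1 to 39.2 CPM (log2 fold change 0.67 ± 0.11, adjusted p = 0.00321). ID4 and PMEPA1 rose by 0.25 and 0.36, and ID4 lost its call without BRSK1 replicate 1. SMAD7 and KLF10 passed under all 25 alternatives, and they were the 2 left without BRSK1 replicate 3, hcRED replicate 1 or Mock replicate 3.

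Of 21 Notch receptors, ligands and targets, 4 rose, all of them transcription factors downstream of the receptors: HEY2 by 0.50 ± 0.11, HES4 by 0.68 ± 0.13, HES1 by 0.34 ± 0.09 and HES5 by 1.11 ± 0.30. HES4 stood at 108 to 119.6 CPM with BRSK1 and 55.6 to 80.7 CPM in the controls. None of the receptors and ligands tested passed. HES5 lost its call without BRSK1 replicate 1, all 4 lost it without BRSK1 replicate 3, 2 passed without BRSK1 replicate 2 or Mock replicate 3, 1 without hcRED replicate 1, and against hcRED alone HEY2 was the 1 that passed.

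Immediate early genes, which respond within minutes to growth factors and stress, gave 3 rises and 1 fall among 28, with a median of 0.11. The phosphatase gene DUSP1 stood at 32.0, 36.9 and 34.5 CPM with BRSK1 against 25.1 to 25.7 CPM in all 4 controls (log2 fold change 0.43 ± 0.09, adjusted p = 0.00593). JUND rose by 0.40 ± 0.09 and KLF6 by 0.28 ± 0.08, and FOSB fell by 0.54 on the log2 scale. KLF6 and FOSB lost their calls without any 1 of BRSK1 replicates 1 and 2, hcRED replicate 1 and Mock replicate 3, DUSP1 alone passed without BRSK1 replicate 3, and none of the 4 was called against hcRED alone. Of 16 targets of CREB and its coactivators CRTC, which AMPK-related kinases of the SIK branch hold in the cytoplasm, none rose and 2 fell, the clock gene PER1 by 0.34 and the phosphodiesterase gene PDE4A by 0.48 on the log2 scale. Neither passed against hcRED alone, and PDE4A lost its call without any 1 of BRSK1 replicates 2 and 3, hcRED replicate 1 and Mock replicate 2. Of 15 MAP kinase phosphatases and feedback inhibitors, DUSP8 rose and SPRED2, which restrains RAF, fell by 0.32 on the log2 scale.

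NRF2 targets gave 3 falls and no rise among 32 tested, at a median of -0.05. The share called was 9.38%, all lower, beside 2.66% of all tested genes called lower. SLC7A11, the cystine transporter that supplies glutathione synthesis, stood at 29.1, 29.9 and 23.5 CPM with BRSK1, 38.0 and 42.3 CPM with hcRED, and 39.0 and 44.0 CPM in Mock (log2 fold change -0.57 ± 0.09, adjusted p = 0.000798). Every control was above every BRSK1 library, and the call held under all 25 alternatives. SLC7A11 is also a target of ATF4. The epoxide hydrolase gene EPHX1 fell by 0.29 and the ferritin light chain gene FTL by 0.26 on the log2 scale, and both lost their calls without BRSK1 replicate 2 or hcRED replicate 1 and against hcRED alone. The glutathione synthesis genes GCLC (-0.15) and GCLM (-0.16), the quinone reductase NQO1 (-0.16) and the thioredoxin reductase TXNRD1 (-0.07) did not pass. Among 20 regulators of the pathway, the small MAF partner MAFK rose by 0.27 ± 0.08 and AMER1, which binds KEAP1, fell by 0.40 on the log2 scale, and neither passed against hcRED alone or without any 1 of BRSK1 replicates 2 and 3 and hcRED replicate 1.

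Of 26 AMPK subunits and related kinases, BRSK1 among them, 4 were higher and none lower. PRKAG1, a regulatory AMPK subunit, rose from 31.4 to 37.2 CPM to 43.6 to 49.1 CPM (log2 fold change 0.45 ± 0.08, adjusted p = 0.00137). NUAK1, a related kinase that acts on myosin phosphatase, rose by 0.37 ± 0.07 and the catalytic subunit gene PRKAA1 by 0.25 ± 0.07. The LKB1 gene STK11 had a log2 fold change of 0.04. PRKAG1 passed under all 25 alternatives, and PRKAA1 and NUAK1 did not pass against hcRED alone or without BRSK1 replicate 3.

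**Figure D4:**
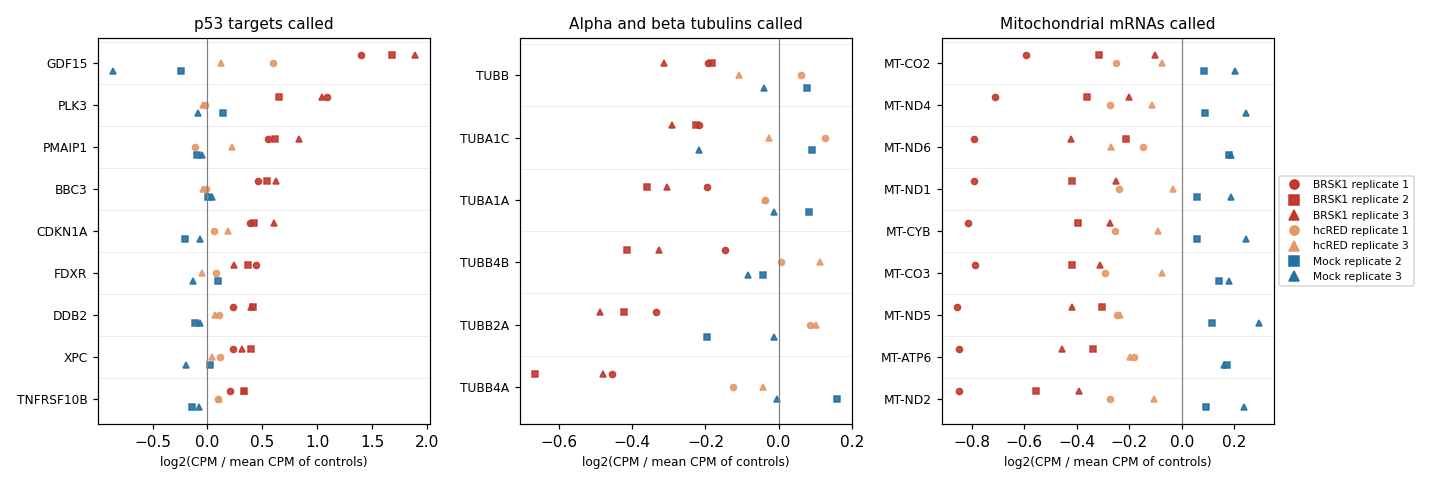
Each row is 1 called gene of the p53 target list (left), the tubulins (middle) or the mitochondrial mRNAs (right), and each point the log2 ratio of 1 library's CPM to the mean CPM of the 4 controls. For MT-ND2 and MT-ATP6 BRSK1 replicate 1 is lowest and Mock replicates are highest, with hcRED between. MT-ND2 runs from 1648 CPM in BRSK1 replicate 1 to 3502 CPM in Mock replicate 3. Over the 13 tested mitochondrial mRNAs, BRSK1 and control libraries were fully apart for 7.

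Of 25 p53 targets, 9 rose and none fell, with a median of 0.23. CDKN1A, which encodes the cyclin-dependent kinase inhibitor p21, stood at 57.5, 58.9 and 66.7 CPM with BRSK1, 45.6 and 49.9 CPM with hcRED, and 38.0 and 41.9 CPM in Mock (log2 fold change 0.48 ± 0.08, adjusted p = 0.000872). BBC3, the proapoptotic protein PUMA, stood at 25.9, 27.4 and 29.01 CPM against 18.3 to 19.4 CPM in the 4 controls (log2 fold change 0.54 ± 0.10, adjusted p = 0.00215). In both genes the BRSK1 libraries lay above all controls, and for CDKN1A hcRED lay between BRSK1 and Mock. The secreted stress factor GDF15 rose from 0.396 to 1.08 CPM to 1.89 to 2.66 CPM (log2 fold change 1.73 ± 0.31, adjusted p = 0.00235), and the kinase PLK3 from 1.98 to 2.32 CPM to 3.32 to 4.50 CPM. PMAIP1, FDXR, DDB2, XPC and TNFRSF10B rose by 0.30 to 0.68. MDM2, a ubiquitin ligase, had a log2 fold change of -0.06 and the proapoptotic BAX one of -0.11, and neither passed.

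The p53 count moved with the control. Against Mock alone 10 of the 25 were higher, at a median of 0.37, and against hcRED alone BBC3 was the 1 that passed, at a median of 0.12. Without BRSK1 replicate 1, 8 of the 9 remained called. That number was 5 without BRSK1 replicate 2, 4 without BRSK1 replicate 3, and 6 without either hcRED replicate 1 or Mock replicate 3.

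Of 17 members of the BCL2 family, 6 rose and none fell, with a median of 0.09. They include BBC3 and PMAIP1, which are also on the p53 list, and the further proapoptotic BH3-only genes BMF (0.46 ± 0.11) and HRK (0.47 ± 0.13). BCL2L13 (0.35 ± 0.07) and the antiapoptotic BCL2L2 (0.34 ± 0.10) complete the 6. BMF and BCL2L2 overlapped between BRSK1 and hcRED libraries. BBC3 and BCL2L13 passed under all 25 alternatives, and they were the 2 that passed against hcRED alone and without BRSK1 replicate 2 or 3. Of the 6, 5 passed without BRSK1 replicate 1, and without hcRED replicate 1 or Mock replicate 2, 3 passed.

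Of the cell cycle genes, 10.3% of those of G1 and S phase and 8.33% of those of G2 and M phase were called, beside 6.43% of all tested genes. CDT1, which licenses replication origins, stood at 303, 309.6 and 355 CPM with BRSK1, 199 and 234 CPM with hcRED, and 207 and 198 CPM in Mock (log2 fold change 0.62 ± 0.07, adjusted p = 9.13e-06). Of 39 G1 and S phase genes, CDT1, E2F1 (0.28 ± 0.06) and E2F8 (0.42 ± 0.09) rose and the chromatin assembly gene CHAF1A fell by 0.26, with a median of -0.03. Of 36 G2 and M phase genes, HMMR (0.40 ± 0.06), CDK1 (0.33 ± 0.07) and TOP2A (0.21 ± 0.06) rose, with a median of 0.02. CDT1, E2F1 and HMMR passed under all 25 alternatives, and they were the 3 of these 7 genes left without BRSK1 replicate 3.

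Stress response lists moved in mixed directions. Of 42 targets of ATF4 and the integrated stress response, GDF15 rose and 6 fell: the amino acid transporters SLC7A5 (-0.31 ± 0.06) and SLC1A5 (-0.32 ± 0.07), DDIT4 (-0.56 ± 0.11), an inhibitor of mTORC1, STC2 (-0.25 ± 0.06), the tRNA synthetase gene IARS (-0.25 ± 0.07) and the serine synthesis gene PHGDH (-0.20 ± 0.06). SLC7A5 stood at 351, 317 and 311 CPM with BRSK1, 378 and 389 CPM with hcRED, and 423 and 425 CPM in Mock, so that the groups did not overlap and hcRED lay between. All 7 remained called without BRSK1 replicate 1, 2 without BRSK1 replicate 2, 1 without BRSK1 replicate 3, 4 without hcRED replicate 1, and none against hcRED alone. Of 22 genes of the unfolded protein response, 4 rose and none fell: the chaperone HSP90B1 (0.32 ± 0.06), the disulfide isomerase PDIA4 (0.29 ± 0.06), the sensor ERN1 (0.36 ± 0.10) and EDEM1 (0.26 ± 0.07), which helps clear misfolded glycoproteins. None of the 4 passed against hcRED alone, 3 passed without BRSK1 replicate 1, and 2 passed without any 1 of BRSK1 replicates 2 and 3, hcRED replicate 1 and both Mock libraries.

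Of 24 heat shock genes, 3 rose and 3 fell. HSPA6, an HSP70 that is barely expressed without stress, had the largest difference, and the 250 bases before its start (chr1:161524290-161524539, plus strand, GRCh38.p14, RefSeq) are shown because the gene also set BRSK1 apart from BRSK2. The capitals match GAANNTTC, a unit of the heat shock element and its own reverse complement, which starts 180 and 69 bases before the start and is held by 2030 of the 35116 windows (5.78%).
HSPA6: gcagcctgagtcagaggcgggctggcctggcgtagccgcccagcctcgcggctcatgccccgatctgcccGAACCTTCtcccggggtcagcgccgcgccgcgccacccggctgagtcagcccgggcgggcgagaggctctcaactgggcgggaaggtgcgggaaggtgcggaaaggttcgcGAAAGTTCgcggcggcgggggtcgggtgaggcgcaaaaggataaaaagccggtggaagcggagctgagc
HSPA6 (chr1:161524540-161526910 on hg38) stood at 3.55, 6.42 and 7.06 CPM with BRSK1, 1.70 and 3.38 CPM with hcRED, and 0.454 and 0.149 CPM in Mock. The hcRED libraries lay between Mock and BRSK1, with hcRED replicate 3 just under BRSK1 replicate 1. The log2 fold change was 2.69 ± 0.37 (adjusted p = 0.000751), 4.22 against Mock alone and 1.17 against hcRED alone (adjusted p = 0.17), and the call was also lost with the 4 controls as 1 group. No source used here says how reads were shared with near-identical HSP70 genes. The collagen chaperone SERPINH1 (0.32 ± 0.06) and the factor HSF2 (0.28 ± 0.08) rose, and the constitutive chaperones DNAJA1 (-0.27 ± 0.06), HSPA4 (-0.25 ± 0.07) and HSPA8 (-0.21 ± 0.07) fell. DNAJA1 was the 1 of the 6 that passed against hcRED alone, 5 passed without BRSK1 replicate 1 and 3 without BRSK1 replicate 2, and HSPA6 and SERPINH1 were the 2 that passed without BRSK1 replicate 3 or hcRED replicate 1.

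Tubulins, the building blocks of microtubules, were lower. Of 14 alpha and beta tubulins, 6 fell and none rose, with a median of -0.29. TUBB2A stood at 27.7, 26.0 and 24.9 CPM with BRSK1, 37.0 and 37.5 CPM with hcRED, and 30.4 and 34.6 CPM in Mock (log2 fold change -0.41 ± 0.08, adjusted p = 0.0045). TUBB4A stood at 18.3, 15.8 and 18.01 CPM against 23.0 and 24.4 CPM with hcRED and 28.1 and 25.1 CPM in Mock (log2 fold change -0.53 ± 0.11, adjusted p = 0.00518). For both, all BRSK1 libraries lay under all controls, with hcRED above Mock for TUBB2A and below it for TUBB4A. TUBA1A fell by 0.29, TUBB4B by 0.29, TUBA1C by 0.24 and TUBB by 0.23 on the log2 scale. Tubulin genes are near-identical in sequence, so the split of reads between them is uncertain. Without BRSK1 replicate 1, 4 of the 6 remained called, without BRSK1 replicate 2 or 3 it was 2, without Mock replicate 2 or hcRED replicate 1 it was 3, and against hcRED alone TUBB2A. Of 25 microtubule-associated proteins, 8% were called, beside 6.43% of all tested genes. MAP1A and MAP7D1 (-0.21 ± 0.06) fell and none rose. Neither passed against hcRED alone, against Mock alone, or without BRSK1 replicate 2 or 3.

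Transcripts of the mitochondrial genome were lower. Of the 13 mRNAs, 9 fell and none rose, with a median of -0.47 beside 0.00 for all genes. MT-ND2, a subunit of respiratory complex I, stood at 1648, 2020.3 and 2266 CPM with BRSK1, 2456 and 2762 CPM with hcRED, and 3164 and 3502 CPM in Mock (log2 fold change -0.58 ± 0.09, adjusted p = 0.00138). MT-ATP6, of the ATP synthase, stood at 2756, 3922 and 3611 CPM against 4372 and 4329 CPM with hcRED and 5592 and 5548 CPM in Mock (log2 fold change -0.52 ± 0.09, adjusted p = 0.00387). The groups did not overlap in either gene, BRSK1 replicate 1 was lowest, and hcRED lay between BRSK1 and Mock. The mitochondrial share of all counts was 4.17%, 5.32% and 5.73% with BRSK1, 5.82% and 6.48% with hcRED, and 7.17% and 7.88% in Mock. Those totals include BRSK1 itself, at 4.72%, 6.52% and 6.96% in BRSK1 replicates 1, 2 and 3, which lowers the share there. The order of BRSK1 replicate 3 and hcRED replicate 1 in this share therefore cannot be read as a mitochondrial difference. Against Mock alone 10 of the 13 were lower, with a median of -0.64, and against hcRED alone none passed, with a median of -0.27. The median difference of hcRED from Mock was -0.34. Without BRSK1 replicate 1, 7 of the 9 remained called. That number was 3 without Mock replicate 3 and 5 without any 1 of BRSK1 replicate 2, both hcRED libraries and BRSK2 replicate 1. Fewer mitochondria and less mitochondrial RNA cannot be told apart in bulk RNA.

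Nuclear genes of energy metabolism moved less. Of 73 nuclear-encoded respiratory chain genes, 5 fell and none rose (6.85% called, beside 6.43% of all tested genes), with a median of -0.06: NDUFS6 (-0.36 ± 0.07), UQCR11 (-0.38 ± 0.09), NDUFS5, NDUFB7 and NDUFB10. Only 2 of these 5, NDUFS6 and UQCR11, remained called without BRSK1 replicate 1 or Mock replicate 2, 1 without hcRED replicate 1 and none without BRSK1 replicate 3. Of 27 genes for mitochondrial gene expression, 7.41% were called, beside 6.43% of all tested genes. The RNA-processing gene FASTKD5 (-0.35 ± 0.08) and the DNA helicase gene C10orf2 (-0.30 ± 0.07) fell. Neither passed without BRSK1 replicate 3, and 1 of the 2 passed without any 1 of BRSK1 replicate 2 and both hcRED libraries, and against either control alone. Of 24 glycolysis genes, 7 fell and 1 rose, with a median of -0.16. The glucose transporter SLC2A1 stood at 68.9, 54.4 and 63.9 CPM with BRSK1, 84.9 and 74.6 CPM with hcRED, and 86.9 and 86.4 CPM in Mock (log2 fold change -0.41 ± 0.08, adjusted p = 0.00262). HK2, PKM, LDHA, ENO1, PGAM1 and TPI1 fell by 0.21 to 0.40 on the log2 scale, and ENO2, the neuronal enolase, rose by 0.40 ± 0.10. Against Mock alone 10 members were lower and against hcRED alone none, where the median was -0.04. Of the 8 calls 7 remained without BRSK1 replicate 1, without BRSK1 replicate 2 or 3 it was 1, and without Mock replicate 3 or hcRED replicate 1 it was 2. Of 19 hypoxia targets, BNIP3L (-0.38 ± 0.08), HILPDA (-0.55 ± 0.13) and EGLN3 (-0.54 ± 0.14) fell. None of these passed against hcRED alone or without BRSK1 replicate 2, and BNIP3L alone passed without BRSK1 replicate 3 or hcRED replicate 1.

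Further lists held few calls each, but their shares are to be read beside 6.43% of all tested genes. The share was 8.7% for cholesterol synthesis, 8.33% for fatty acid synthesis, 10.8% for autophagy and lysosome and 8.82% for the proteasome. It was 12.5% for neuronal, 6.45% for MYC and ribosome biogenesis, 11.8% for clock and 13.3% for histone genes. Interferon response genes had 5.56% and snoRNA hosts 5%. In cholesterol synthesis, MSMO1 stood at 48.7, 47.6 and 45.2 CPM with BRSK1 against 36.2 to 37.3 CPM in all 4 controls (log2 fold change 0.35 ± 0.07, adjusted p = 0.0039) and IDI1 rose by 0.26 ± 0.07, 2 of 23 genes. Of 12 fatty acid synthesis genes, FASN fell by 0.24 on the log2 scale. Of 37 autophagy and lysosome genes, the kinase ULK2, the sialidase NEU1 and the proton pump subunit ATP6V1A rose and the pump subunit ATP6V0D1 fell, each by 0.26 to 0.35. Of 34 proteasome genes, PSMC4, PSMD1 and PSMD3 fell by 0.19 to 0.24, and none of these passed against either control alone. No cytosolic ribosomal protein gene passed among 75. Of 24 neuronal and synaptic genes, VAMP2, SYT1 and ENO2 rose, and none of them passed against hcRED alone. The polymerase I subunit POLR1A and WDR43 fell among 31 MYC and ribosome biogenesis genes, and PER1 and DBP among 17 clock genes. HIST1H1E and HIST2H2BE rose among 15 histone genes, STAT2 among 18 interferon response genes and SNHG16 among 20 snoRNA host genes and similar RNAs. Of the genes named in these sentences, the call was lost without at least 1 library for each but MSMO1, ATP6V0D1 and PER1. The calls lost without BRSK1 replicate 1 were IDI1, ATP6V1A, PSMC4, SYT1 and HIST2H2BE. VIM, the intermediate filament gene vimentin, stood at 143, 164 and 169 CPM with BRSK1 and at 112 to 120.4 CPM in the controls (log2 fold change 0.46 ± 0.06, adjusted p = 0.000241), and passed under all 25 alternatives.

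BRSK1 and BRSK2 libraries were compared directly, since both kinases are closely related and share the 4 control libraries. Between them 59 genes differed, 20 higher and 39 lower with BRSK1 (0.348%, 0.118% and 0.23% of the tested genes), and the 2 overexpressed genes are among the 59. The count rested on single libraries and settings: it was 7, 8 and 12 without BRSK1 replicate 1, 2 or 3, 15 and 7 without BRSK2 replicate 2 or 3, 22 and 21 without hcRED replicate 1 or 3, and 161 by DESeq2. Of the 59, 7 were called in the same comparison without BRSK1 replicate 1, and 20 were also called in BRSK1 against the controls. A gene that missed the threshold is not shown to respond alike.

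**Figure D5:**
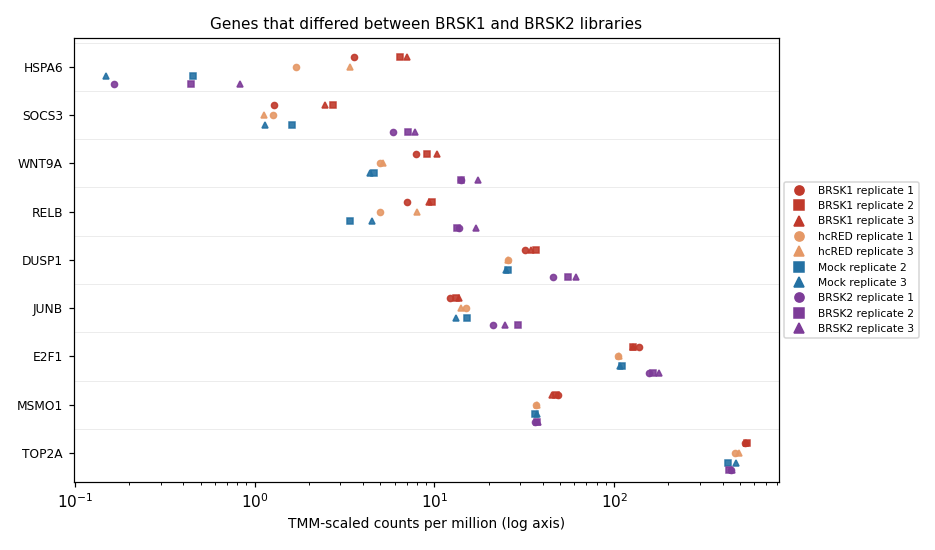
Each row is 1 gene and each point 1 of the 10 libraries, with TMM-scaled CPM on a log axis, colour for the group and marker shape for the replicate. HSPA6 is highest in BRSK1 and SOCS3, WNT9A, RELB, DUSP1, JUNB and E2F1 are highest in BRSK2, while MSMO1 and TOP2A are highest in BRSK1.

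HSPA6 stood at 0.164, 0.443 and 0.827 CPM in BRSK2 replicates 1, 2 and 3, under all BRSK1 and hcRED libraries, with the highest above both Mock libraries. The difference of BRSK1 from BRSK2 was 3.60 on the log2 scale (SE 0.44, adjusted p = 0.000944). DNAJB1, another chaperone gene of the heat shock response, was higher with BRSK1 than with BRSK2 by 0.37 ± 0.06 (adjusted p = 0.0121), with 0.10 for BRSK1 and -0.27 for BRSK2 against the controls. MSMO1 (0.35 ± 0.07) and TOP2A (0.29 ± 0.06) were also higher with BRSK1 than with BRSK2.

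Of 28 immediate early genes, 3 differed between BRSK1 and BRSK2: JUNB, ARC and DUSP1, all lower with BRSK1. JUNB, an AP-1 subunit, stood at 12.2, 13.1 and 13.7 CPM with BRSK1, 13.1 to 15.1 CPM in the controls and 21.2, 29.1 and 24.6 CPM with BRSK2, a difference of -0.94 ± 0.12 (adjusted p = 0.000134). SOCS3, an inhibitor of cytokine signalling chosen here after its values were seen, stood at 1.28, 2.74 and 2.45 CPM with BRSK1, 1.13 to 1.62 CPM in the controls and 5.91, 7.13 and 7.76 CPM with BRSK2, a difference of -1.67 ± 0.24 (adjusted p = 0.000944). For both, all BRSK2 libraries lay above all others, and neither passed in BRSK1 against the controls. ARC had a difference of -0.93 ± 0.19, DUSP1 of -0.64 ± 0.09, the stress-response genes SESN2 and CHAC1 of -0.51 ± 0.08 and -0.70 ± 0.16.

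Of the 16 highest BRSK1 genes, WNT9A was the 1 that differed from BRSK2. It stood at 14.1, 14.1 and 17.5 CPM with BRSK2, above all BRSK1 libraries, with a difference of -0.74 ± 0.14 (adjusted p = 0.0188), and RELB had one of -0.75 ± 0.17 (adjusted p = 0.0464). E2F1 differed by -0.34 ± 0.06, FASN by -0.35 ± 0.08, STC2 by -0.34 ± 0.07 and PER1 by -0.31 ± 0.07. HSPA6, JUNB, SOCS3, DUSP1 and E2F1 were called in this comparison without BRSK1 replicate 1, and WNT9A, RELB, MSMO1, TOP2A, FASN, STC2, PER1, DNAJB1, ARC, SESN2 and CHAC1 were not. For TXNIP the values were 1.22 with BRSK1 and 0.78 with BRSK2 against the controls, and the difference of 0.44 had an adjusted p of 0.2. PTK2B had 1.27 and 0.98 and PIM1 0.93 and 1.16, with differences of 0.29 and -0.22 that did not pass. F12 had -0.78 and -0.31, with a difference of -0.47 (adjusted p = 0.24).

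The genes that fell differed from those that rose in GC content, chromosome and abundance. The median GC content of the longest transcript was 54.4% for the 451 lower genes and 49.2% for the 638 higher ones and for all tested genes. Of the lower genes, 66 (14.6%) lie on chromosome 19, beside 6.96% of the tested genes and 29 (4.55%) of the higher ones, and 5 of the 66 are zinc finger genes. With each library's trend with GC content removed, 527 genes were lower, 61 of them on chromosome 19. Lower genes were also the more abundant, at a median of 78.2 CPM in the controls against 21.9 CPM for the higher genes and 16.2 CPM for all tested genes. Abundance affects which small changes can pass, and its part in this difference was not tested. At the threshold itself stood OSMR (adjusted p = 0.04996) and RP11-363N22.3 just inside, and NAV1 (0.0501) and LGALS3 (0.0502) just outside.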

How the data were processed

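The authors deposited raw counts per gene for each kinase, with the same 4 control columns in both tables (0 genes differed), and STAR, edgeR, limma and hg38 appear, without versions, in the submitters' processing notes. No source used here gives the counter, its strand setting or the annotation. The authors' deposited table of differential genes gives log2 fold changes and adjusted p-values, per the file headers. The 10 libraries were joined (0 lines without a gene, 0 unused count columns). Counts were tested with edgeR 4.0.16 in R 4.3.3: TMM factors, filterByExpr (minimum count 10, minimum total 15), and the robust quasi-likelihood F test with 4 group means over all 10 libraries. BRSK1 was set against the mean of hcRED and Mock, with Benjamini-Hochberg adjustment over 16936 genes and a threshold of 0.05. The size of each log2 fold change over the root of its F value served as its standard error. The median spread between replicates was a biological coefficient of variation of 8.06%.

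The members and the 45 gene lists (1143 symbols, 3 unmatched) were chosen with earlier results of these data known. Named genes are BRSK1 and BRSK2, the 16 highest and 12 lowest called genes of at least 5 CPM with libraries fully apart and called without BRSK1 replicate 1, up to 4 called members of each list with the smallest p (2 where none passed), called NRF2 targets, the 6 most abundant squamous markers, and the 6 highest and lowest against BRSK2. Other members named, SOCS3 and genes given as not passing, were picked with their values in view. The scaling was varied (RLE, upper quartile, totals alone, or without the counts of both kinases), as were the filter (none, or 1 CPM in 3 libraries) and the model: DESeq2 1.42.0, limma-voom (limma 3.58.1), no robust estimation, a replicate block, a threshold of 0.01, and only the groups compared. Libraries were left out in turn, and hcRED, Mock or the 4 controls pooled as 1 group served as control. A correction for each library's GC trend (lowess, span 0.3) and the list counts under each alternative were added after the data were seen. Figures were drawn with matplotlib 3.10.9.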

Additional observations from a re-analysis of the deposited data

Results flagged for a closer look

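The effect of BRSK1 differed from that of BRSK2 by a direct test (edgeR, adjusted over all genes) for 10 genes named above. Each of these 10 was also called in BRSK1 against the controls, and BRSK1 itself is left out. The log2 difference, BRSK1 minus BRSK2, was 3.60 for HSPA6, 0.35 for MSMO1 and 0.29 for TOP2A, and -0.75 for RELB, -0.74 for WNT9A, -0.64 for DUSP1, -0.35 for FASN, -0.34 for E2F1, -0.34 for STC2 and -0.31 for PER1. HSPA6, DUSP1 and E2F1 were called in this comparison without BRSK1 replicate 1, and the rest of the 10 were not. JUNB, SOCS3, ARC, SESN2, CHAC1 and DNAJB1 also differed, without a call in BRSK1 against the controls. Both kinases were set against the same 4 control libraries. These cancel in the log2 difference but still enter the spread, the scaling and the filter of its test.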

How the results depend on the processing

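For the 174 genes named or called in a list, 157 of them called, 4336 comparisons with an alternative gave 3644 with the same call, 678 where a call was lost, 14 where one was gained and 0 reversed, and 28 called genes passed under every alternative. The count of genes against the controls (1089, 638 higher, 451 lower) became 133 (99, 34) with hcRED alone and 256 (180, 76) at an adjusted p under 0.01, and library totals alone gave 733 lower. With 1 library left out it ran from 204 to 1751, from 132 to 941 higher and from 72 to 810 lower. The replicate block gave 1999 (1067, 932), 267 against BRSK2 and 434 for hcRED against Mock. Deviations of same-numbered libraries correlated at -0.05 to 0.16 over 12 pairs, with a median of 0.05. Over 25 pairs of unlike number the range was -0.14 to 0.10 and the median -0.06. In hcRED and Mock, with 2 libraries each, the deviations of the 2 are opposite in sign. BRSK1 replicate 1, for example, had -0.017 with hcRED replicate 1 and 0.017 with hcRED replicate 3. Pairs of like and unlike number are therefore not independent. The main fit did not pair samples by number, and whether the numbers mark shared conditions was not tested. BRSK1 against BRSK2 (59) became 206 with library totals alone, 188 with no filter, 161 by DESeq2, 14 with no robust estimation, 20 with only the groups compared, 10 with the correction for GC content and 6 at 0.01, and ran from 7 to 64 with 1 library left out. For hcRED against Mock (5), the count was 128 with no filter, 3 with a filter of 1 CPM, 54 by DESeq2, 3 by limma-voom, 0 with no robust estimation, 0 with only the groups compared, 0 at 0.01, and 0 to 49 with 1 library left out. Where that left a group with 1 sample, the lone sample was taken to vary as the rest do. The causes were not tested. Depth limits genes near 1 CPM, such as ANKRD1, where 2 control libraries had no count.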
